A study of Mus musculus with 112 samples.

Results

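The 42 genes described here encode the contractile, membrane and metabolic machinery of skeletal muscle fibres, and their messenger RNA was followed from mouse skin through papillomas and carcinomas to metastases. They were found by symbol on the array: a gene was represented by the probe sets annotated to it alone and, where there were several, by whichever of them was brightest on average. All 42 listed genes were measured, out of 18772 genes, and 5 of them had more than 1 probe set. By role, 7 belong to the thin filament, 10 to the thick filament and its anchors, 10 to the Z-disc, the intermediate filaments and the costamere, 9 to excitation-contraction coupling and calcium handling, and 6 to energy metabolism.

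Skeletal muscle contracts when calcium, released from the sarcoplasmic reticulum through the ryanodine receptor, binds troponin on the actin filaments and lets myosin pull on them. Fibres differ in the isoforms of myosin, troponin and calcium pump that they carry, and so fall into slow and fast types. Rodent skin lies on the panniculus carnosus, a thin sheet of mostly fast striated muscle under the dermis, which a full-thickness piece of skin can include.

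The samples were 112 arrays from 15 male mice, bred by crossing hybrids of Mus spretus and FVB back to FVB. Of these mice, 9 were wild type (WT) and 6 carried a knockout labelled HrasKO, and the targeted gene itself was not analysed here. Every mouse received the mutagen DMBA once at 8 weeks of age, followed by the tumour promoter TPA 2 times a week, so the skins also came from treated animals. Dorsal skin was measured once in each of the 15 mice. Papillomas, benign outgrowths of the epidermis, gave 27 arrays from 13 mice (9 WT and 4 HrasKO). Squamous cell carcinomas (SCC) gave 10 arrays from 8 mice, all WT, and spindle carcinomas, poorly differentiated tumours of elongated cells, gave 12 arrays from 10 mice (6 WT and 4 HrasKO). Metastases labelled SCC gave 24 arrays from 11 mice (8 WT and 3 HrasKO) and those labelled spindle gave 20 arrays from 7 mice (3 WT and 4 HrasKO). A further 3 carcinomas and 1 metastasis had a mixed histology and entered no comparison. Primary tumours were resected above 1 cm, and the metastases were taken at sacrifice.

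The values are log2 intensities, and array medians lay between 5.89 and 6.36. The labels name 2 batches, of which the second consisted of 17 arrays from 1 WT and 1 HrasKO mouse. On all genes outside the list, 19 arrays correlated best with a tissue class other than their own, when carcinomas and metastases of one histology are taken as 1 class, and these are the arrays said here to stand apart. A further 16 metastases (6 SCC and 10 spindle) lay closest to the carcinomas of their own histology and were kept. Of the 19, 10 were papillomas, and they included papilloma 2 of mouse 1407, which lay closest to skin, both papillomas of mouse 1815, closest to spindle carcinoma, and papilloma 2 of mouse 1984, closest to spindle metastasis. The others were 2 SCC, 1 spindle carcinoma and 6 SCC metastases. In bulk tissue of this kind, fewer muscle cells and less RNA per muscle cell cannot be told apart.

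The RefSeq promoter table (GRCm38.p6) held 28 of the 42 genes, each with the 250 bases before its annotated start. Printed here are skeletal actin (Acta1), creatine kinase (Ckm) and the fast myosin Myh1, whose levels over the skins correlated with the mean of the other members at r above 0.9, the fast myosin Myh4, at 0.86, and slow troponin I (Tnni1), at -0.12. Each is written 5′ to 3′ on the gene's strand, and capitals mark every match, on either strand, to the motifs searched: the E-box CANNTG, of which the MyoD-type E-box CAGCTG is a subset, the MCAT element CATTCC, the CArG box, and TATAAA, the core of the TATA box.

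Acta1 (chr8:123894776-123895025, minus strand): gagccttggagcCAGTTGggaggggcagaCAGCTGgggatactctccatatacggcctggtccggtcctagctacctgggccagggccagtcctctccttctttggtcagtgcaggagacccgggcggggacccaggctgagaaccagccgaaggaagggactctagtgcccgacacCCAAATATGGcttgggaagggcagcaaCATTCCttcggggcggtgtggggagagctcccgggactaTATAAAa
Ckm (chr7:19410844-19411093, plus strand): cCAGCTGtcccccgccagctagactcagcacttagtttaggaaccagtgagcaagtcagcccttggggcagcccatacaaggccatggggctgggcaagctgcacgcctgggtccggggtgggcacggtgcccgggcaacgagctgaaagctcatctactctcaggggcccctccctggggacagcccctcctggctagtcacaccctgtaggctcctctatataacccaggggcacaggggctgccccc
Myh1 (chr11:67199852-67200101, plus strand): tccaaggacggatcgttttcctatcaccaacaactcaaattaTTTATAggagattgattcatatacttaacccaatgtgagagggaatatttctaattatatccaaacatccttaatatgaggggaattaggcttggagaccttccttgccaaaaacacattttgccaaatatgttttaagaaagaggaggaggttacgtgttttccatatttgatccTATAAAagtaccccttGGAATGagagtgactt
Myh4 (chr11:67237562-67237811, plus strand): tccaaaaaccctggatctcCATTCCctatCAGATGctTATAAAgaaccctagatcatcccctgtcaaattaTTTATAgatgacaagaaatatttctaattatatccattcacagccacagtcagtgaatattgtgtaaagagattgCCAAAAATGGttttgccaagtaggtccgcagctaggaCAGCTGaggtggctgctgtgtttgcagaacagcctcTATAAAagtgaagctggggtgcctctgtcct
Tnni1 (chr1:135799171-135799420, plus strand): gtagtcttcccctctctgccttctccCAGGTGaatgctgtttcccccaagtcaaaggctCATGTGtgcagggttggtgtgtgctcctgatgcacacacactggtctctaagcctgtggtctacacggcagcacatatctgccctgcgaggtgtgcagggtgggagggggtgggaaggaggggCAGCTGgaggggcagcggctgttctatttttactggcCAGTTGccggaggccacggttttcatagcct

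An E-box stood in 22 of the 28 members' promoters, against 66.0% of all 27025 promoters of this length. The narrower CAGCTG stood in 12 of 28 (42.9%), against 12.8% of all promoters, and CATTCC in 7 of 28, against 12.6%. A CArG box was found in 4 members (Acta1, Ldb3, Myh4 and Myom1), against 1.40% of all promoters, and a MEF2 site in 2 (Ttn and Xirp2), against 0.518%. TATAAA was found in 5 members, against 12.97%. Ckm carries a CAGCTG at position -249 from its start and Acta1 at -221, Myh4 at -67 and Tnni1 at -68, so that these letters stood in genes with both high and low correlations with the list. A match describes the letters alone, and no binding was measured.

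Of the 6 tissue classes, skin had the highest median level of muscle RNA and the largest spread between mice. The mean log2 level of the 42 genes, here called the member mean, ran from 5.12 in mouse 1984 to 10.34 in mouse 1706, with a median of 8.26 over the 15 skins and a mean of 8.05 ± 1.64 (SD, n = 15 mice). The 5 lowest skins, those of mice 1984, 1949, 1717, 1815 and 2104, all came from WT mice and lay between 5.12 and 6.59. The skin of mouse 1984 had the lowest value of its group for 31 of the 42 genes, and that of mouse 1706 the highest for 22.

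**Figure D1:**
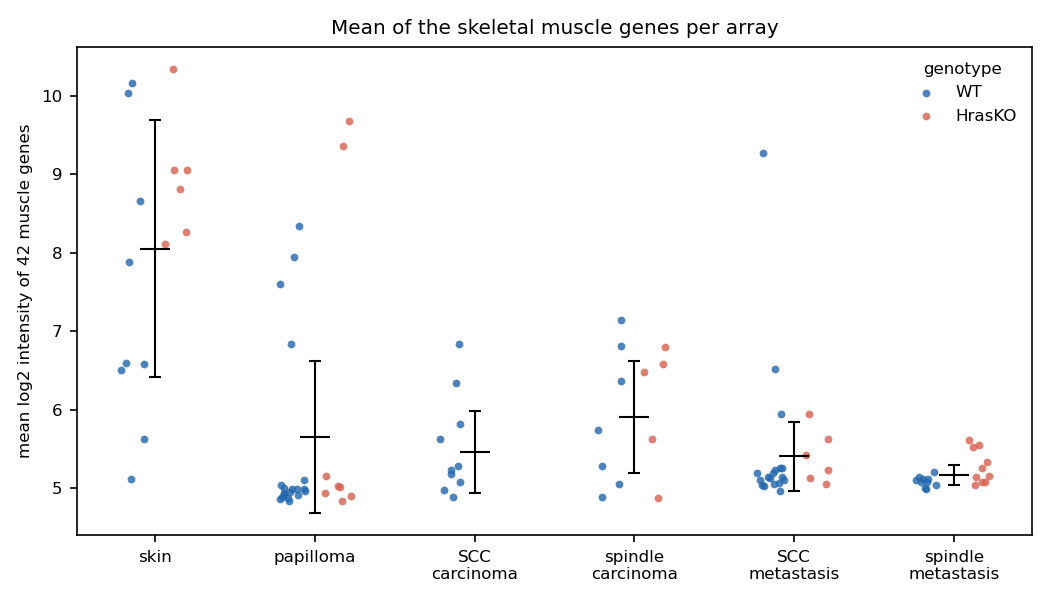
Mean log2 intensity of the 42 skeletal muscle genes on each array (y axis) by tissue class (x axis), with WT and HrasKO arrays in separate colours; black marks give the mean ± SD over mouse means. Skins spread from 5.12 to 10.34, whereas 21 of 27 papillomas lie between 4.83 and 5.15 and the spindle metastases between 4.99 and 5.62.

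Among thin filament genes, Acta1, which encodes the actin of the sarcomere, had log2 levels in skin from 6.78 through a median of 11.44 to 12.62. Fast troponin T (Tnnt3) ran from 5.52 through 10.31 to 11.95, and fast troponin I (Tnni2) from 6.31 through 9.48 to 11.82. In each of these 3 genes the HrasKO skins lay within the upper part of the range and overlapped the WT skins. The slow isoforms differed: slow troponin T (Tnnt1) lay between 5.07 and 6.09 in every skin except that of mouse 2022, which reached 7.42. Slow troponin I ran from 4.96 through 6.24 to 9.15, again with mouse 2022 at the top.

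Among thick filament genes, Myh1, the type IIx myosin heavy chain, ran from 4.15 through 9.73 to 11.31, Myh2, type IIa, from 4.21 through 7.36 to 10.78, and Myh4, type IIb, from 4.56 through 9.16 to 12.14. Mouse 1984 was lowest for all 3. The light chain Myl1 ran from 5.41 through 10.997 to 12.32, and titin (Ttn), the molecular spring of the sarcomere, from 4.64 through 8.99 to 11.31. The span over the skins was therefore wider for Myh4 than for the intermediate filament gene desmin (Des), which lay between 9.06 and 11.84 in all 15.

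Among genes of calcium handling, the fast calcium pump Atp2a1 ran from 4.93 through 10.89 to 12.65, and the release channel Ryr1 from 4.74 through 7.68 to 10.43. The calcium buffer parvalbumin (Pvalb), found in fast fibres, ran from 4.10 through 9.01 to 11.14. Sarcolipin (Sln), a small inhibitor of the calcium pump, stayed between 3.96 and 5.08 in skin and between 3.85 and 5.03 in the tumours. Of the metabolic genes, Ckm ran from 5.90 through 10.33 to 12.06, Cox6a2, the muscle form of a cytochrome oxidase subunit, from 5.98 through 8.49 to 11.47, and beta enolase (Eno3) from 6.76 through 9.82 to 11.76.

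**Figure D2:**
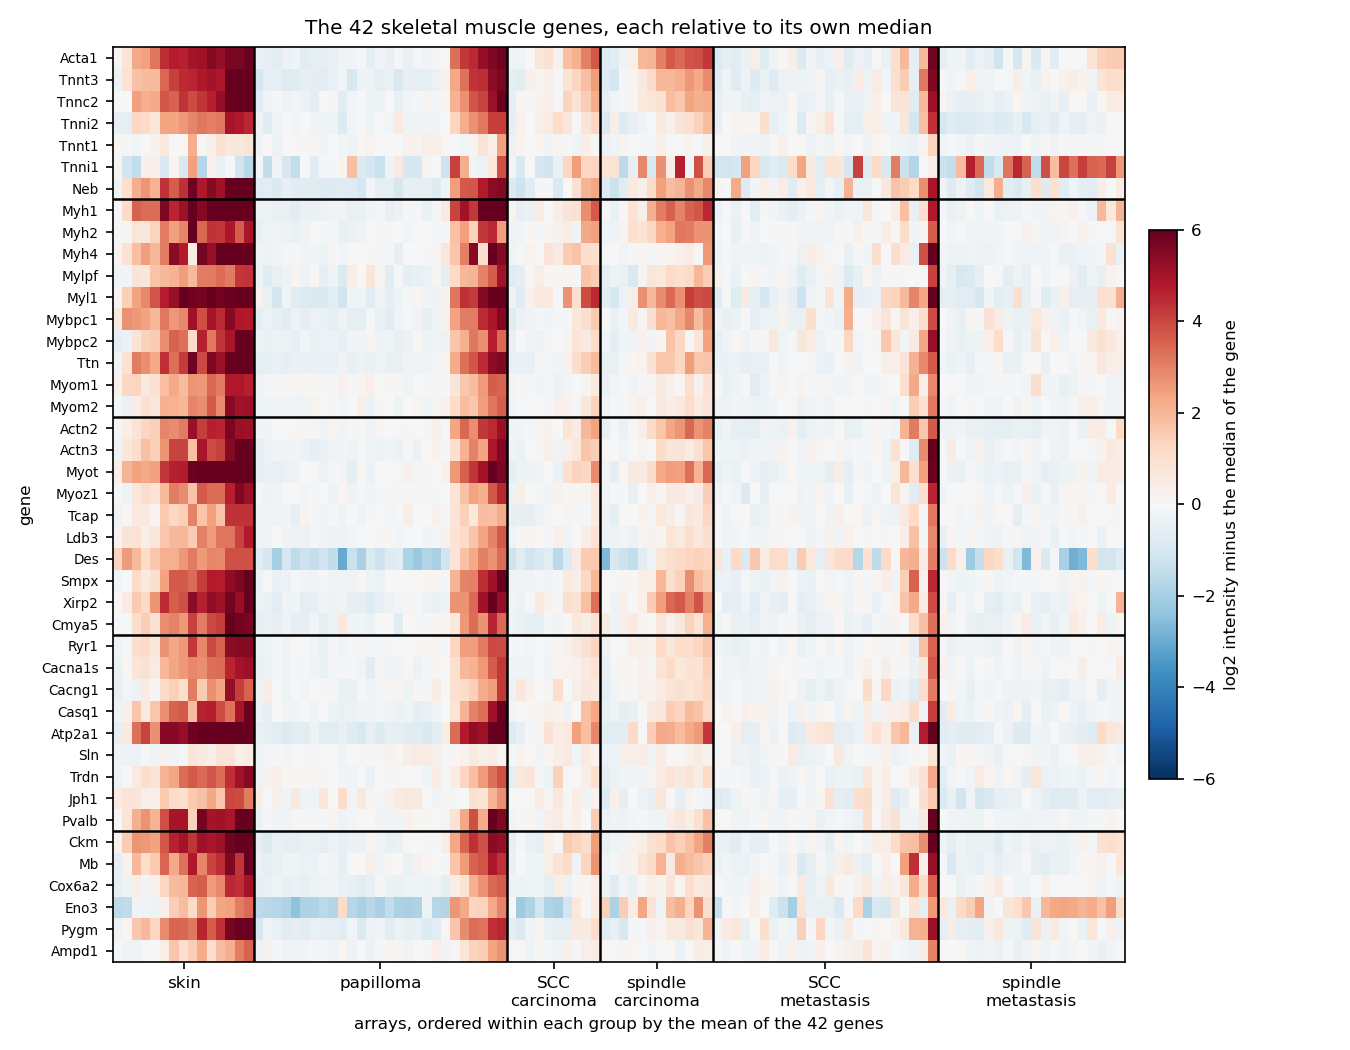
Log2 level of each of the 42 genes (rows, grouped by role) on each array (columns, grouped by tissue class), shown as the difference from the gene's own median over the plotted arrays, with the colour scale capped at 6 in either direction. Most skins, 6 papillomas and 1 lymph node metastasis are high for nearly all rows, while Tnnt1 and Tnni1 do not follow that pattern. Sln varies little (SD 0.41 over the skins), though it correlates with the other members there (r = 0.80).

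Over the 15 skins most members moved together. The correlation of a gene with the mean of the other members exceeded 0.9 for 32 of the 42, with a median r of 0.95. The lowest were Tnni1 (r = -0.12), Tnnt1 (0.48), Sln (0.80), Des (0.85) and Myh4 (0.86). These are descriptions over 15 arrays of 1 tissue that were normalized together, and no p was computed. Outside the list, 47 of 18730 genes (0.251%) had r above 0.9 with the member mean. The closest were Klhl41 (r = 0.99), a sarcomere-stabilising kelch protein, Txlnb, Klhl31, Eef1a2, the muscle and neuron form of an elongation factor, Hjv, Cox8b, Asb12, Tmem182, Alpk3 and Fabp3, the last with r = 0.95.

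Other gene groups of the skin followed the member mean to different degrees. The mean of 8 myogenic and satellite cell genes correlated with it at r = 0.93, that of 8 neuromuscular junction genes at 0.83 and that of 5 endothelial genes at 0.83. The mean of 8 adipocyte genes did so at 0.19 and that of 7 epidermal keratinocyte genes at -0.49. The lowest of the 16 lists was that of 3 brown adipocyte genes (-0.63). Of these, Cidea ran from 7.47 to 10.86 over the skins and Dio2 from 6.37 to 8.02, while Ucp1 stayed between 3.68 and 4.14. The slow and cardiac-type list gave r = 0.53 and the developmental list 0.55, with rank correlations of 0.88 and 0.87, and macrophage genes gave 0.57. Genes of the myogenic and satellite cell list varied unequally over the skins. Their log2 span was 5.61 for Myf6, 3.03 for Vgll2, 2.72 for Mef2c and 2.03 for Myod1. For Myf5, Cdh15, Myog and Pax7 the span was 1.11, 1.09, 0.916 and 0.595. All of these list means come from the same 15 arrays.

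Fibre-type genes separated 1 skin from the others. In the skin of mouse 2022 Myh2 was at 10.78, against a skin median of 7.36, and Myh1 at 10.54, but Myh4 was at 4.84, against a median of 9.16, and Pvalb at 5.51, against 9.01. The same skin had slow myosin Myh7 at 8.37 (skin median 4.37), slow troponin C (Tnnc1) at 7.90 (5.38), the slow light chain Myl2 at 6.73 (4.11) and embryonic myosin Myh3 at 8.04 (3.91). Its member mean of 8.66 was close to the median of the group. The skin of mouse 1984, in contrast, was low for Myh1, Myh2 and Myh4 alike. Developmental genes did not single out mouse 2022. Myh8, Actc1 and Myl4 were highest in the skin of mouse 1664, at 7.70, 9.59 and 10.615, against 6.60, 6.56 and 9.305 in that of mouse 2022. Myh3 was at 5.94 in mouse 1664, and Chrng and Mymk were, like Myh3, highest in mouse 2022.

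**Figure D3:**
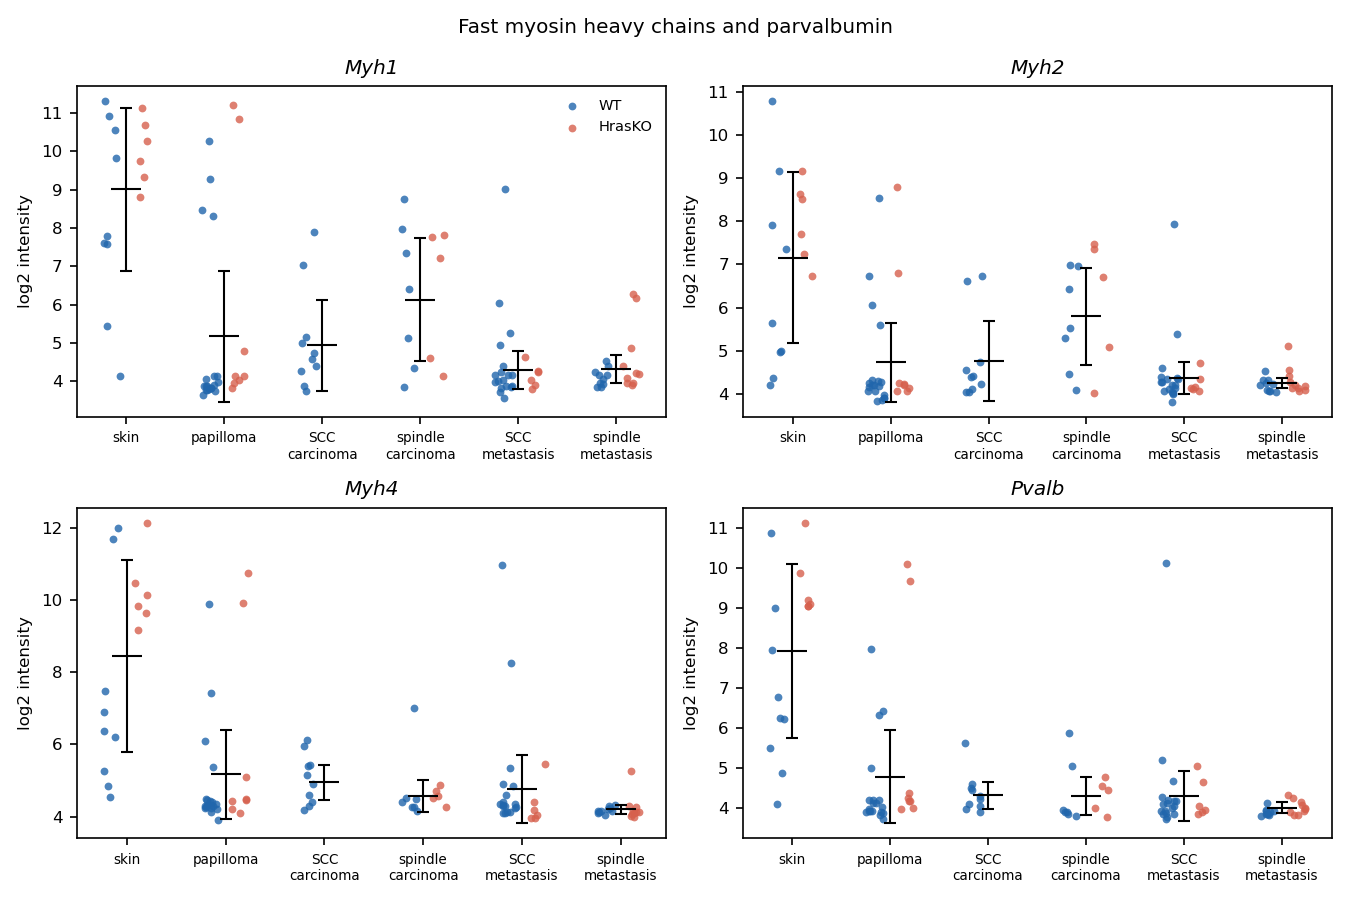
Log2 level of the fast myosins Myh1, Myh2 and Myh4 and of parvalbumin (Pvalb) on each array by tissue class. In spindle carcinomas Myh1 reaches 8.75 and Myh2 7.46, while Myh4 is at 7.01 on 1 array and at or below 4.89 on the other 11.

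The first comparison asked how papillomas differ from skin of the same mouse, over 13 mice. Of the 42 members, 37 were lower in papilloma and 0 were higher, in a comparison where 42.6% of all genes were called (18.1% were lower). The median change of the members was -2.29 on the log2 scale, and that of all genes was 0.05. Without the arrays that stood apart, 39 members were lower and the median change was -3.07. All 10 thick filament genes and all 10 Z-disc and costamere genes were lower, as were 5 of 7 thin filament genes, 7 of 9 of calcium handling and 5 of 6 of energy metabolism.

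Papilloma levels of Atp2a1 had a median of 4.85, a lowest value of 4.51 and a highest of 11.62, so that they overlapped the skins. Atp2a1 fell by 4.05 (SE 0.83, adjusted p = 0.0013 with limma), was lower in 11 of 13 mice and gave the largest change of the list. Myl1, with a papilloma median of 4.98 between 4.04 and 11.68, fell by 3.84 (SE 0.76, adjusted p = 0.00103), and Myh1, with a median of 3.98 between 3.63 and 11.21, fell by 3.75 (SE 0.81, adjusted p = 0.00198). The next largest falls were those of Myot, a Z-disc protein, and of nebulin (Neb), the thin filament ruler, each by 3.60. In every one of these genes most papillomas lay within a narrow band and a few reached the level of the higher skins.

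Desmin, which is also made by smooth muscle, fell by 3.30 (SE 0.44, limma adjusted p = 4.63e-05), was lower in 12 of 13 mice and had the smallest adjusted p of the list. Its papilloma levels ran from 4.94 through 6.77 to 11.33, against 9.06 to 11.84 in skin. Ckm fell by 3.27 (9.62-fold), with papilloma values from 4.91 through 5.37 to 11.12. Acta1 fell by 3.16 (SE 0.71), with papilloma values from 6.08 through 6.46 to 12.52, and was lower in 10 of 13 mice. Smaller falls were those of Tnni2, by 1.88, Cox6a2, by 1.87, Eno3, by 1.80, and junctophilin 1 (Jph1), which ties the sarcoplasmic reticulum to the surface membrane, by 1.32. Jph1 was lower in 12 of 13 mice.

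The 5 members that did not pass were Cacng1, a subunit of the voltage sensor (change -1.29, adjusted p = 0.0715 with limma), Ampd1, muscle AMP deaminase (-0.84, adjusted p = 0.0643), Tnnt1 (-0.25, adjusted p = 0.357), Sln (-0.06, adjusted p = 0.737) and Tnni1 (0.45, adjusted p = 0.418). Cacng1 and Ampd1 were lower in 8 of 13 mice each. Tnni1 was lower in 5 of 13, with papilloma levels from 5.20 through 6.49 to 10.76.

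**Figure D4:**
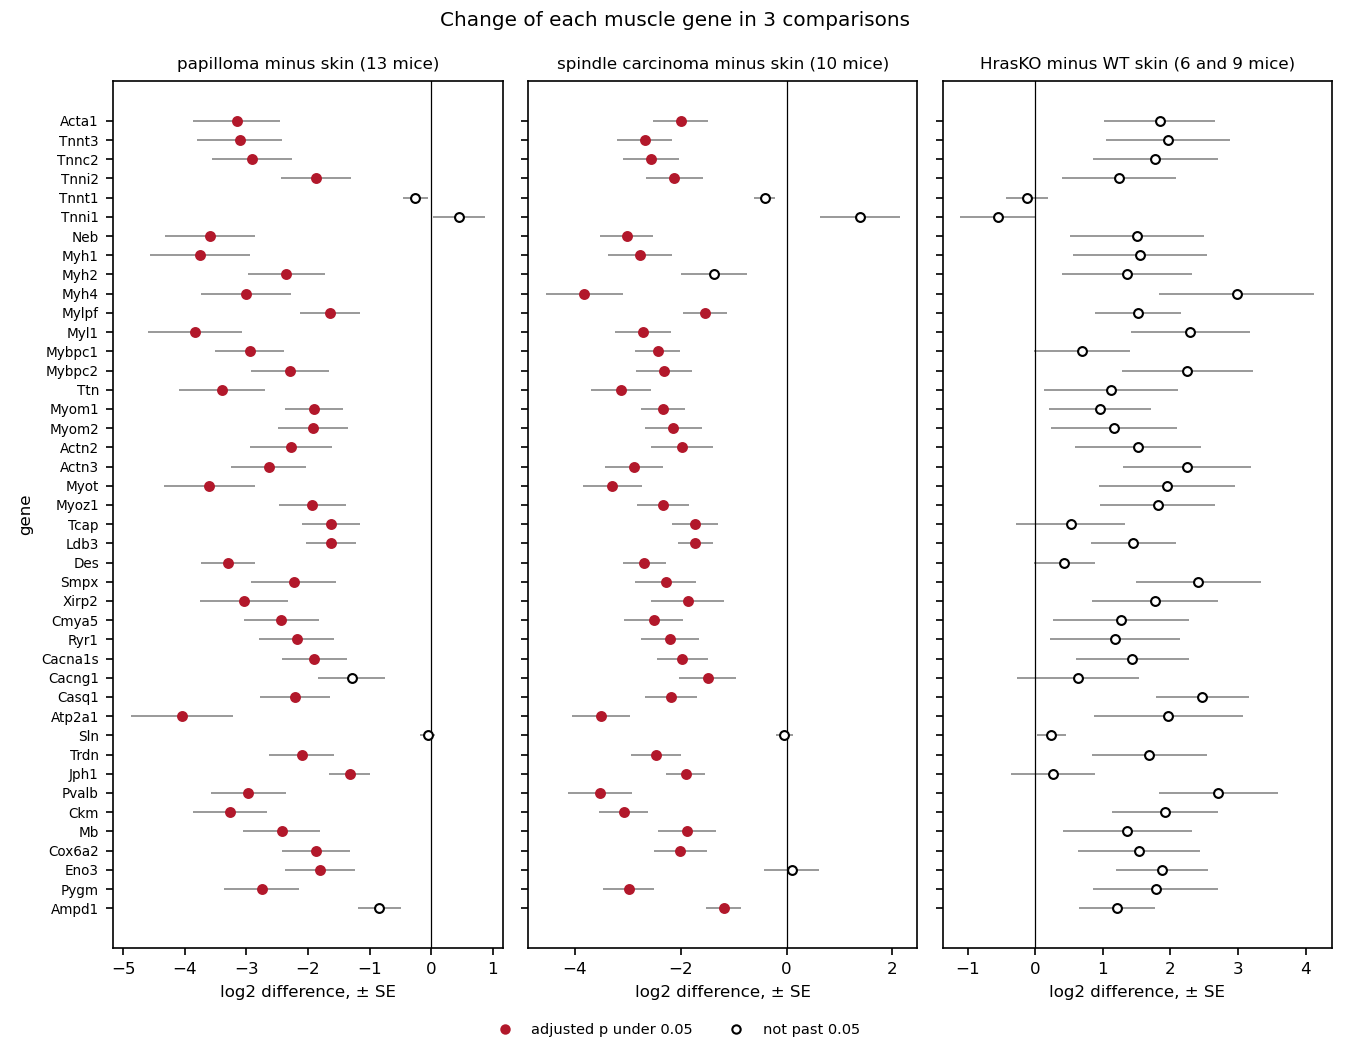
Log2 change with its SE (x axis) of each member (y axis) in 3 comparisons: papilloma minus skin, spindle carcinoma minus skin, and HrasKO minus WT skin; filled points passed an adjusted p of 0.05 in limma. Nearly all members are below 0 in the first 2 panels, Eno3 and Tnni1 are not below 0 in the second, and no point is filled in the third.

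The papillomas did not form a single cluster. On 21 arrays the member mean lay between 4.83 and 5.15, and on the remaining 6 between 6.84 and 9.68, with a gap of 1.69 in between. These 6 were papillomas 2 and 3 of mouse 1815 (7.59 and 6.84), papilloma 3 of mouse 1949 (7.94), papilloma 2 of mouse 1984 (8.34), papilloma 1 of mouse 1706 (9.36) and papilloma 2 of mouse 1407 (9.68). On the genes outside the list, that of mouse 1949 lay closest to the other papillomas and that of mouse 1706 closest to SCC.

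In mice 1815, 1949 and 1984 the papilloma mean exceeded the skin, for 34, 31 and 39 of the 42 genes. Their skins were among the 5 lowest of the group. In the other 10 mice between 0 and 6 genes were higher in papilloma. The papilloma minus skin difference of the member mean was -5.26 in mouse 1508 and -5.05 in mouse 1383, the largest of the 13 mice in size.

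Marker lists of other cells differed on these arrays. The adipocyte mean was 8.84, 9.11, 8.05 and 8.78 on the arrays of mice 1949, 1984, 1706 and 1407, against a papilloma median of 6.30, and 5.87 and 5.91 on those of mouse 1815. The epidermal keratinocyte mean was 5.04 and 5.65 on the arrays of mouse 1815 and 6.21 on that of mouse 1984, against a papilloma median of 11.96, and between 11.28 and 11.85 on the other 3. The part of fat, or of a low share of epidermis, in the muscle level of these arrays was not tested.

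Papilloma 2 of mouse 1407 also carried developmental muscle genes. Embryonic myosin Myh3 was at 9.51 on it, against a papilloma median of 3.93, perinatal myosin Myh8 at 10.23 (median 4.73), and cardiac actin Actc1, the actin of embryonic muscle, at 12.10. Myogenin (Myog), a transcription factor of muscle differentiation, was at 6.28 (median 4.43) and the acetylcholine receptor subunit Chrna1 at 8.30 (median 4.52). These were not raised on that array alone: papilloma 2 of mouse 1984 had Myog at 5.90 and Chrna1 at 6.94. Actc1 was at 7.79 on papilloma 2 of mouse 1815, against a papilloma median of 5.74. On the other 5 arrays Myh3 lay between 3.87 and 4.87 and Myh8 between 4.73 and 5.43. Papilloma 2 of mouse 1407 had the highest papilloma value for 28 of the 42 members.

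Carcinomas were compared with skin of the same mouse. In 10 mice with spindle carcinoma, 37 of 42 members were lower and 0 higher, where 46.7% of all genes were called and 19.2% were lower, with a median change of -2.25. The largest falls were those of Myh4, by 3.82 (SE 0.73, limma adjusted p = 0.00128, lower in 10 of 10 mice), Pvalb, by 3.53, Atp2a1, by 3.51, and Myot, by 3.29. In 8 mice with SCC, 24 of 42 members were lower and 0 higher, where 30.6% of all genes were called and 15% were lower, with a median change of -2.15. There Myot fell by 3.66, Myh1 by 3.51, Neb by 3.45 and Ttn by 3.41. The SCC count dropped to 11 without mouse 1456, which is also the only batch 2 mouse in it, and to 14 without mouse 1508.

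Spindle carcinomas differed from one another over much of the list. Myh1 ran from 3.85 through 6.80 to 8.75 over the 12 arrays, Myh2 from 4.01 through 5.97 to 7.46, and Acta1 from 5.89 through 9.24 to 10.95. Myh4, in contrast, lay between 4.17 and 4.89 on 11 of 12 arrays and at 7.01 on the RegCA B array of mouse 1508, and Pvalb lay between 3.78 and 5.88. Myh2 did not pass against skin (change -1.37, limma adjusted p = 0.0909). Myh3 was at 6.09 on the RegCA B array of mouse 1664 and between 3.76 and 4.56 on the other 11, and Myog stayed between 4.18 and 4.67.

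Eno3 and Tnni1 departed from the list in spindle tumours. Eno3, a glycolytic enzyme, had spindle carcinoma levels from 6.45 through 9.72 to 11.06, which overlapped the skins, and its change from skin was 0.09 (SE 0.52, limma adjusted p = 0.898). Tnni1 ran from 5.13 through 7.51 to 11.31 and its change from skin was 1.39 (SE 0.75, adjusted p = 0.153), with a higher level in 7 of 10 mice. In spindle metastases Eno3 ran from 7.95 through 9.90 to 10.85 and Tnni1 from 5.18 through 10.03 to 11.34. The change of Tnni1 from skin there was 2.16 (SE 0.84, adjusted p = 0.0711), higher in 5 of 7 mice.

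**Figure D5:**
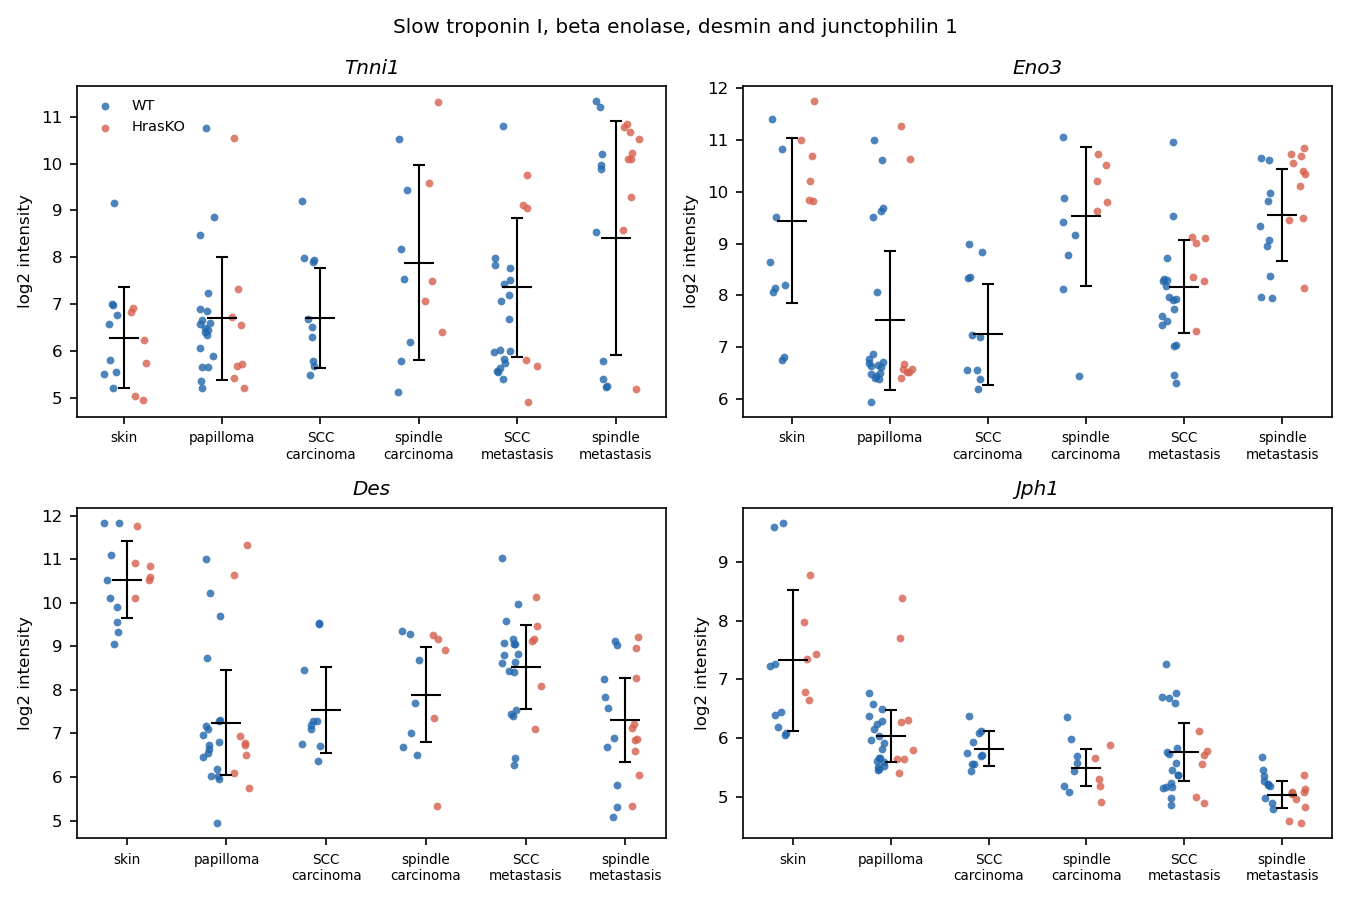
Log2 level of slow troponin I (Tnni1), beta enolase (Eno3), desmin (Des) and junctophilin 1 (Jph1) on each array by tissue class. Tnni1 and Eno3 have medians of 10.03 and 9.90 in spindle metastases, where Jph1 lies between 4.55 and 5.68 and Des between 5.09 and 9.21.

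Against papillomas of the same 9 mice, 2 members passed in spindle carcinoma, where 23.8% of all genes were called (12.6% higher and 11.2% lower): Eno3 rose by 1.66 (SE 0.50, limma adjusted p = 0.0393, higher in 8 of 9 mice) and Jph1 fell by 0.58 (SE 0.16, adjusted p = 0.0286, lower in 9 of 9). The median change of the list was 0.05, and -0.0042 with batch 1 alone. This comparison turned on which arrays were used. Without the arrays that stood apart on the other genes, 21 members were higher and 1 lower, with a median change of 0.65. In that fit 6955 of all 18772 genes were called in either direction. It also lost the pairs of mice 1508 and 1815, whose papillomas all stood apart, and of mouse 1949, whose only spindle carcinoma did. Myh1 then differed by 2.13 (adjusted p = 0.00525), Acta1 by 2.12 (0.0193) and Xirp2, an actin-binding protein of the costamere, by 2.10 (0.0152). In these 9 mice 5 papillomas had a member mean of 6.84 or more, and 4 of them were among the arrays left out. The other, papilloma 3 of mouse 1949, belonged to a pair that was lost, so it did not enter that contrast either. With single mice left out, between 0 and 4 members passed, and Eno3 and Jph1 both missed the threshold without any one of mice 1383, 1508, 1509, 1664 and 2022.

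In 8 mice SCC could be set against papillomas, and 0 of 42 members passed in limma, where 0.202% of all genes were called and 0 members had an unadjusted p under 0.05. The largest differences were those of Myl1 (1.11, adjusted p = 0.714) and Acta1 (0.90, adjusted p = 0.667). Spindle carcinomas and SCC of WT mice (6 against 8 mice) also gave 0 of 42, where 7.56% of all genes were called and 2 members had an unadjusted p under 0.05. Eno3 was the furthest apart there (1.80, adjusted p = 0.0898). Without mouse 1949, Eno3 (2.49, adjusted p = 0.00226) and Cmya5 (0.76, adjusted p = 0.0485) passed.

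In metastases nearly the whole list lay below skin. In 11 mice with SCC metastases 38 of 42 members were lower than in skin, where 39.5% of all genes were called and 16.5% were lower, with a median change of -2.75. Myh1 fell by 4.77 (SE 0.65, limma adjusted p = 0.000151, lower in 11 of 11 mice), Myot by 4.41, Myl1 by 4.21 and Atp2a1 by 4.20. In 7 mice with spindle metastases 36 of 42 were lower, where 42.3% of all genes were called and 16.8% were lower, with a median change of -2.16, and Atp2a1 fell by 4.23, Myl1 by 4.16, Myot by 3.88 and Myh1 by 3.72. The member mean lay between 4.99 and 5.62 on all 20 spindle metastasis arrays.

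A single SCC metastasis stood out. The upper right lymph node of mouse 1456 had a member mean of 9.27, against 4.97 to 6.51 for the other 23 arrays, and the highest value of its group for 41 of 42 members. Acta1 was at 12.48 on it, Myh4 at 10.95 and Atp2a1 at 12.17, against group medians of 6.34, 4.31 and 5.52. Its adipocyte mean was 10.13, against a group median of 6.26, and the part of tissue around the node in these levels was not tested. Without this array, 39 members were lower in SCC metastases than in skin, with a median change of -2.89.

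Against the carcinomas of the same mice, 0 of 42 members passed in SCC metastases (8 mice), where 4.55% of all genes were called and 0 members had an unadjusted p under 0.05, and the median change was -0.01. That median was -0.21 without the upper right lymph node array of mouse 1456 and 0.04 without the arrays that stood apart. In spindle metastases (7 mice) 0 of 42 passed in limma, where 0% of all genes were called. There 28 members had an unadjusted p under 0.05, as had 2495 of all genes, and 41 of 42 had a negative change with a median of -0.64. Myl1 differed by -2.06 and Acta1 by -2.002 (adjusted p = 0.314 for both). When single arrays were fitted with mouse as a random block, 8 members were lower, where 68 of all 18772 genes were called. Among these members were Xirp2 (-1.89), Myh2 (-1.51) and Myot (-1.43). Random block fits may call too many genes.

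Spindle and SCC metastases gave 0 of 42 members (7 against 11 mice), where 0.0693% of all genes were called and 5 members had an unadjusted p under 0.05. Des (-1.37, limma adjusted p = 0.116) and Eno3 (1.12, adjusted p = 0.146) were furthest apart. Lung and lymph node metastases of 8 mice gave 0 of 42, where 0% of all genes were called and 1 member had an unadjusted p under 0.05. Their median difference of -0.65 became 0.23 without the lymph node array of mouse 1456 and -0.98 without the arrays that stood apart.

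Skins of HrasKO mice had higher muscle levels on average, but no member passed. The member mean was 8.93 ± 0.79 (SD, n = 6 mice) in HrasKO skin, between 8.11 and 10.34, and 7.46 ± 1.83 (SD, n = 9) in WT skin, between 5.12 and 10.16, so that the WT range covered most of the HrasKO range. Of 42 members 40 were higher, by a median of 1.52, and 13 had an unadjusted p under 0.05, but 0 passed in limma with batch as a covariate, where 0.00533% of all genes were called. Myh4 differed by 2.98 (SE 1.15, adjusted p = 0.359), Pvalb by 2.71 (SE 0.88, adjusted p = 0.301) and Casq1, the calcium store protein, by 2.47 (SE 0.68, adjusted p = 0.260). Myh4 lay between 9.16 and 12.14 in the 6 HrasKO skins and between 4.56 and 11.997 in the WT skins, with a WT median of 6.38. The 8 adipocyte genes had a median difference of 1.86 in the same comparison and none passed. Their part in the muscle difference was not tested.

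The other genotype comparisons gave 0 members in limma as well. In papilloma (4 against 9 mice) the median difference was 0.76 and 4 members had an unadjusted p under 0.05, where 0.00533% of all genes were called. Without the arrays that stood apart the median became -0.13. In spindle carcinoma (4 against 6) the median was 0.32, with Tnni1 furthest apart (1.99, adjusted p = 0.991), and in spindle metastasis (4 against 3) 0.13. In both, 0% of all genes were called and 0 members had an unadjusted p under 0.05. In SCC metastasis (3 against 8) the median was -0.13, where 0.154% of all genes were called and 4 members had an unadjusted p under 0.05. It turned to 0.12 with batch 1 alone and to 0.18 without the upper right lymph node array of mouse 1456. Without the arrays that stood apart it was -0.28, but a single HrasKO array, a lymph node of mouse 1616, was left there. The change from skin to papilloma was compared between genotypes directly, and 0 of 42 members differed, where 0% of all genes were called and 0 members had an unadjusted p under 0.05. Its median difference was -0.87, and -1.97 without the arrays that stood apart, and the largest was that of Myh4 (-1.80, adjusted p = 0.815, 4 against 9 mice).

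Muscle genes outside the list were counted in the same way. In papilloma against skin, 17 of 26 other sarcomere, triad and muscle enzyme genes were lower and 0 higher, led by the kinase Mylk2 (-2.61, limma adjusted p = 0.0063) and Klhl41 (-2.58). Dystrophin (Dmd), which links the costamere to the matrix, fell by 2.36 and was lower in 13 of 13 mice. Of 8 myogenic genes 3 were lower: Myf6 by 1.75, Vgll2 by 0.84 and Mef2c by 0.84. Of 8 neuromuscular junction genes only Musk, the receptor kinase of the synapse, was lower (-1.06, limma adjusted p = 0.00992). That is a smaller share than the 18.1% of all genes that were lower in papilloma.

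The slow and developmental lists are read against the 24.5% of all genes that were higher in papilloma and the 18.1% that were lower, and whether they differed from the members was not tested. Of 7 slow and cardiac-type genes 1 was lower (Myoz2, -1.59, limma adjusted p = 0.0324) and 1 higher (Myh7b, 0.61, adjusted p = 0.000109, higher in 13 of 13 mice), and of 6 developmental genes 1 was higher (Chrng, 0.38, adjusted p = 0.00545). Of 10 smooth muscle genes 5 were lower, among them Synpo2 (-2.61) and Myh11 (-2.30). Of 7 cardiac genes 3 were higher, where 24.5% of all genes were, among them Myl7 (1.49) and Tnnt2 (1.16).

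The same comparison moved markers of other skin structures. All 6 sebocyte genes, all 8 hair follicle genes and 6 of 8 adipocyte genes were lower in papilloma, with median changes of -3.48, -3.12 and -2.96. Cidec, a lipid droplet protein, fell by 3.75 and Awat1, a wax synthase of sebaceous glands, by 4.09. Of 5 endothelial genes 3 were lower and of 8 fibroblast genes 3, with medians of -0.55 and -0.73. None of 7 epidermal keratinocyte genes and none of 6 macrophage genes passed in limma. The part of these structures in the lower level of the muscle genes was not tested.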

How the data were processed

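RNA from 112 samples was measured on Affymetrix arrays. The deposited values are log2 intensities made by the authors with robust multi-array averaging (RMA), per the submitters' processing notes; its version is not given in the sources used here. Of 28204 probe sets, 21141 had 1 gene symbol, 1881 had several and 5182 were unnamed, and the last 2 kinds were left out, which left 18772 genes. A gene with several probe sets was represented by that with the highest mean. The number of arrays limits the precision.

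The mouse was the replicate, and a mouse with several arrays in a group entered with their mean. Comparisons were fitted over all genes with limma 3.58.1 in R 4.3.3. Groups from the same mice, as the mouse numbers in the labels show, had mouse as a fixed block. For spindle against SCC tumours mouse was a random block, for the metastases beside a genotype covariate. Genotypes had batch as a covariate, and lung against lymph node metastases had histology. The p-values are two-sided and were adjusted by the Benjamini-Hochberg method across the 18772 genes, with a threshold of 0.05; "lower" and "higher" beside a count mean past it.

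The fits were tested on simulated data. A log2 change of 1 was recovered in 96% of simulated cases for papilloma against skin. The rates were computed over a simulated set of 18772 genes. Recovery at the spread of the members was not computed, so the rates do not give it. Recovery was lower for genotype: 53% in spindle carcinoma, 51% in SCC metastasis, 35% in spindle metastasis and 49% for the papilloma minus skin change. It was 79% for genotype in skin, 69% for genotype in papilloma and 84% for spindle metastasis against spindle carcinoma. A count of 0 members in any of the fits does not exclude a log2 change of 1. The random block fits assume 1 correlation within mice for all genes and may call too many genes; they called 0 members as reported. The members, lists and tests were chosen with earlier results of these data known. All members are given by role, with fixed genes described by sample. In each comparison the largest changes among those that passed are given, or the 2 largest where none did. Papilloma 2 of mouse 1407, the skins of mice 2022 and 1664 and the genes named for them were picked after their values were seen. Alternatives were single arrays, no mouse term, no batch covariate, averaged probe sets, a filter on low values, eBayes with trend and robust, repeated quantile normalization, batch 1 alone, and leaving out arrays that stood apart or each mouse.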

Additional observations from a re-analysis of the deposited data

Results flagged for a closer look

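A mouse stood further from the rest of its group than Dixon's 95% limit in 7 of 70 groups of values examined. Chance flags about 1 in 20 of independent groups with normal values. These groups share mice and correlated genes, so the 7 cannot be read against that rate. In spindle carcinoma Myh4 was at 5.77 in mouse 1508, against 4.17 to 4.71 in the other 9 mice, and Eno3 was at 6.45 in mouse 1949, against 8.78 to 11.06. The only spindle carcinoma array of mouse 1949 lay closest to SCC on the other genes. In spindle metastasis Myh1 was at 5.09 in mouse 1664, against 4.04 to 4.44 in the other 6 mice, and Myh4 at 4.47 in mouse 1407, against 4.07 to 4.22. The member mean of WT papillomas was 7.22 in mouse 1815, against 4.90 to 6.06 in the other 8 WT mice. That of HrasKO spindle metastases was 5.07 in mouse 1509, against 5.28 to 5.31 in the other 3, and that of lung metastases was 5.94 in mouse 1616, against 5.06 to 5.33 in the other 9. The same lung array had the highest level of its group for several cardiac and brown fat genes: cardiac troponin I (Tnni3) was at 9.98 (group median 5.80), the atrial peptide Nppa at 7.59 (4.23), the atrial light chain Myl7 at 7.80 (4.37), cardiac actin (Actc1) at 11.58 (6.97) and the uncoupling protein Ucp1 at 10.91 (3.93). The cardiac genes Tnnt2 and Nppb and the brown fat gene Dio2 were highest on other lung arrays. Among adipocyte genes Cidec was at 11.26 on it (6.33) and Adipoq at 9.06 (4.93), while Retn was highest on the array of mouse 1508. This array of mouse 1616 was among those that stood apart and lay closest to spindle metastasis. Its mean over 7 cardiac genes was 7.67 and over 3 brown adipocyte genes 9.44, against group medians of 5.65 and 5.53. The part of these tissues in its muscle level was not tested.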

How the results depend on the processing

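The number of members past the threshold was followed in 18 comparisons. With each mouse left out in turn it ranged from 37 to 39 for papilloma against skin, 35 to 38 for spindle carcinoma against skin, 35 to 40 for SCC metastasis against skin and 28 to 39 for spindle metastasis against skin. It ranged from 11 to 29 for SCC against skin, 0 to 4 for spindle carcinoma against papilloma and 0 to 2 for spindle carcinoma against SCC, with 2 without mouse 1949, and was 0 throughout in the other 11. With batch 1 alone it was 11 for SCC against skin and 0 for spindle carcinoma against papilloma. These were the same fits as without mouse 1456 and without mouse 1664. Without the mouse term (no replicate block, with mouse otherwise pairing the samples) it was 1 for spindle carcinoma against papilloma, and within 1.5 times the reported count elsewhere. Without the arrays that stood apart it was 22 for spindle carcinoma against papilloma, where 6955 of all 18772 genes were called. Actn3 there went from -0.05 to 0.52 (limma adjusted p = 0.0466) and Cox6a2 from -0.02 to 0.56 (adjusted p = 0.0162). For spindle carcinoma against SCC the arrays left out were those of mouse 1949, so this was the same fit as without that mouse. The count there was 2, where 4056 of all genes were called. Single arrays with mouse as a random block gave 8 for spindle metastasis against spindle carcinoma, where 68 of all genes were called. For spindle against SCC metastasis they gave 3 (Eno3 higher, Des and Jph1 lower), where 1951 of all genes were called. The filter on low values gave 1 there (Jph1), where 412 of 11758 genes were called. The causes were not tested. With each mouse left out, the median change of the members took both signs for SCC against papilloma (-0.0065 to 0.36), spindle carcinoma against papilloma (-0.11 to 0.22), SCC metastasis against SCC (-0.18 to 0.11), spindle carcinoma against SCC (-0.012 to 0.43), lung against lymph node metastasis (-0.98 to 0.23) and genotype in SCC metastasis (-0.46 to 0.12), and kept its sign in the other 12. For spindle against SCC metastasis without the arrays that stood apart, 1 mouse had both kinds and the mouse correlation could not be estimated, so that this was fitted without it, an alternative added after seeing the data, as was leaving out the lymph node array of mouse 1456. Of 13764 values for single members under alternatives, 13496 kept direction and side of the threshold.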

Other observations

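The 4 tumours of mixed histology, which entered no comparison, had member means of 5.01, 5.56 and 6.65 in the carcinomas and 5.11 in the metastasis. Tnni1 was at 11.59 in the mixed carcinoma of mouse 1616.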
